A study of Mus musculus with 2 samples.

Results

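The cells described here are ependymal ciliated cells, the glial cells that line the ventricles of the brain, caught in a sort of vascular cells and macrophages. They were taken from 2 droplet libraries by the transcripts they held. A barcode counted as ependymal when it had at least 500 detected genes, at most 10% mitochondrial molecules, at least 2 unique molecular identifiers (UMIs) of at least 4 of Ccdc153, Tmem212, Hydin, Dnah12, Spag17 and Ak7, and fewer than 4 of the choroid plexus genes Folr1, Kl, Calml4, Kcnj13, Sostdc1 and Enpp2 at that level. This rule found 131 cells, 48 in the control library and 83 in the mutant library, among 12036 barcodes that passed the gene and mitochondrial limits and 17474 barcodes in all. The control library came from adult Csf1rfl/fl mice, whose gene for the colony-stimulating factor 1 receptor is flanked by loxP sites. The mutant library came from adult Mrc1Cre:Csf1rfl/fl mice, where Cre made from the Mrc1 locus cuts the same floxed gene in cells that express the mannose receptor, chiefly border macrophages. Both groups therefore carry the floxed allele. The sources used here do not give the number, sex or exact age of the pooled mice, nor whether the controls were littermates. Whole brain was sorted with gates on CD13 or CD140a, CD31, ACSA-2, and CD11b with F4/80, none of which is set for ependymal cells. The series title concerns interleukin-34-dependent perivascular macrophages and their role at brain vessels. With 1 library per genotype there is no spread between animals to test against, so no p-value is given. Every interval is a 95% interval that covers counting error only.

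Ependymal cells carry tufts of motile cilia that beat to move cerebrospinal fluid along the ventricle wall. The axoneme of such a cilium is a ring of microtubule doublets around a central pair. Outer and inner dynein arms slide the doublets, radial spokes and the nexin-dynein regulatory complex set their rhythm, and proteins inside the tubules stiffen them. FOXJ1 and the RFX factors switch these genes on, and inherited loss of many of them causes primary ciliary dyskinesia, in mice often with hydrocephalus.

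The libraries held 8739 and 8735 barcodes, with 5742 control and 6294 mutant barcodes kept. Ependymal cells were deeper than microglia-like cells. The ependymal median was 17609 UMIs (5251 to 107984) and 5135 genes for control cells and 16895 UMIs (2372 to 48185) and 5159 genes for mutant cells. Microglia-like cells had medians of 8450 and 8391 UMIs, choroid plexus epithelium-like cells of 17101.5 and 14737, and oligodendrocyte-like cells of 18094 and 20204. All ependymal cells together held 943267 control and 1489890 mutant UMIs. The matrices shared 17 cell barcodes, and 0 of them were ependymal. A pair of control barcodes stood apart. The first held 107984 UMIs, 11.4% of all control ependymal UMIs, with rule markers at 982 CPM (UMIs per 1000000 UMIs of a cell or of a sum of cells) and astrocyte markers at 19975 CPM. The other held 48956 UMIs, of which 21.5% were haemoglobin, against at most 2.66% in any other control ependymal cell. The main counts of genes that differ between libraries are given below with and without the first of them, called the deep barcode. Other values include it unless their paragraph says otherwise.

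The rule's own genes describe the selection and support nothing further. Ccdc153 had a median of 31 UMIs per control cell (6 to 67) and 36 per mutant cell (0 to 117), and Tmem212, which encodes a small membrane protein, 45 (4 to 100) and 44 (6 to 141). Hydin, a giant protein of the central pair, had 9.5 (2 to 30) and 10 (1 to 45). Dnah12, an inner arm dynein heavy chain, had 12 (3 to 36) and 12 (1 to 39). The edge of the rule was nearly empty. All 6 rule genes were present in 45 of 48 control and 75 of 83 mutant cells, while 0 control and 1 mutant barcode had 3 of them and 0 control and 1 mutant barcode had 2. The exclusion genes were less clean. Calml4 reached 2 UMIs in 97.9% of control and 97.6% of mutant ependymal cells, at 541 and 679 CPM, against 966 and 980 CPM in choroid plexus epithelium-like cells. Folr1, a folate receptor, reached it in 66.7% and 60.2% of cells, whereas Kl and Kcnj13 reached it in 0% of both. Because of this, 45 of the 131 cells had 3 exclusion genes, 1 short of removal, and 1 control and 11 mutant barcodes were removed for having 4 or more. Of the removed mutant barcodes, 8 had 4 exclusion genes, with choroid plexus markers at 2753 CPM and the ependymal markers outside the rule at 14819 CPM, close to the 3246 and 14295 CPM of the 27 mutant members with 3. The other 3 had all 6 exclusion genes and choroid plexus markers at 241459 CPM.

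Markers that the rule did not use went with the label. The 16 further ependymal markers summed to 13058 CPM over control and 14808 CPM over mutant cells, against 262 and 457 CPM in astrocyte-like cells, 1178 and 1204 CPM in choroid plexus epithelium-like cells and 29.6 and 28.8 CPM in microglia-like cells. Per cell, this sum had a median of 14758 CPM among control cells (2343 to 23707) and 15070 CPM among mutant cells (2951 to 26755). Foxj1, the master regulator of motile cilia, stood at 465 and 546 CPM. Rsph1, a radial spoke head protein, stood at 1030 and 1151 CPM, and Rarres2, which encodes the secreted adipokine chemerin, at 2795 and 3412 CPM. Sntn, which encodes the cilium tip protein sentan, was found in 79.2% of control and 89.2% of mutant cells. Rax, the defining factor of tanycytes, the other ependymal-lineage cell of the ventricle wall, had 0 UMIs in all 131 cells, which allows a share of cells with a UMI of up to 7.40% of control and 4.35% of mutant cells (upper 95% Clopper-Pearson bounds). Among the other tanycyte markers Scn7a, a sodium channel gene, was the most frequent, in 60.4% and 73.5% of cells, followed by Lhx2 in 25% and 22.9%.

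**Figure D1:**
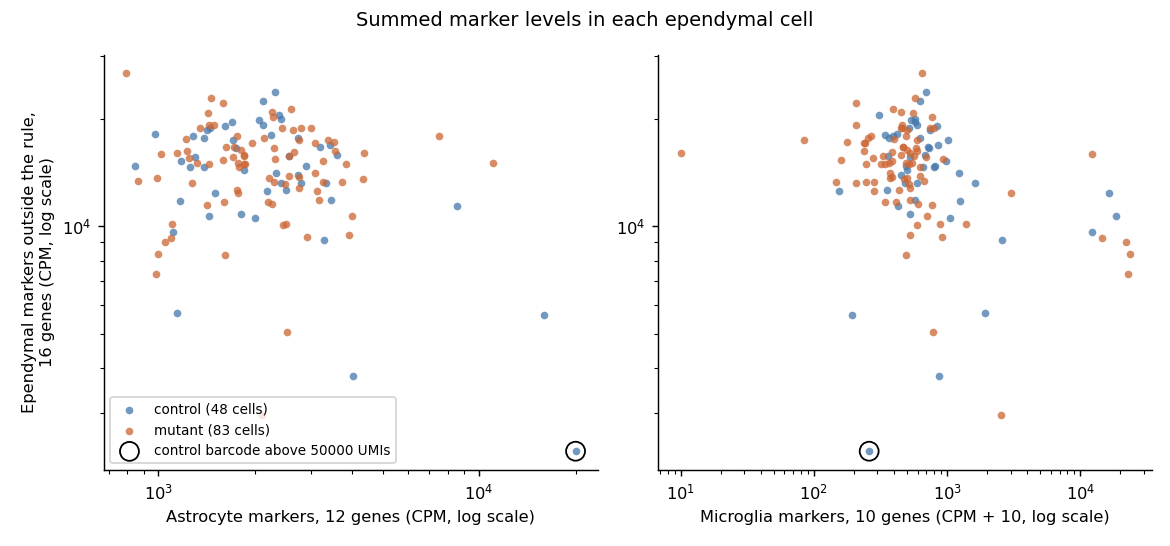
Each point is 1 ependymal cell, with the summed CPM of the 16 ependymal markers outside the rule on the y axis against the summed CPM of 12 astrocyte markers (one panel) and of 10 microglia markers (the other panel, 10 CPM added), on log axes and coloured by library, with the deep barcode ringed. The cells of both libraries gather around ependymal sums of 14758 and 15070 CPM, and the ringed barcode has the lowest ependymal sum of the control, 2343 CPM, with the highest astrocyte sum, 19975 CPM.

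RNA of other cell types was present in these barcodes. Astrocyte markers had a median of 2119 CPM per control cell (846 to 19975) and 2139 CPM per mutant cell (794 to 11051). Microglia markers had a median of 601 CPM (146 to 18386) per control cell and 484 CPM (0 to 23564) per mutant cell, and 4 control and 7 mutant cells exceeded 2000 CPM. The astrocyte marker rule was also met by 33 control and 62 mutant ependymal cells, and a rule for another type by 6 and 8 cells. Several astrocyte markers are normal ependymal genes. Aqp4, the water channel of glial membranes, was found in 97.9% of control and 98.8% of mutant ependymal cells at 857 and 779 CPM, while Gjb6, an astrocyte connexin, was found in 12.5% and 7.23%. Border macrophage markers were at 0 in 30 control and 68 mutant cells. How far RNA from other cells or mixed droplets contributes to the results below was not tested.

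Ependymal cells were 0.836% (0.617 to 1.11) of kept control barcodes and 1.32% (1.05 to 1.63) of kept mutant barcodes. The gap depended on the mitochondrial limit. Of the barcodes that met the marker part of the rule at any mitochondrial share, 47 of 95 control barcodes (49.5%, 39.1 to 59.9) and 17 of 100 mutant barcodes (17%, 10.2 to 25.8) had over 10% mitochondrial UMIs. Other barcodes exceeded the limit in 28.7% of control and 21.1% of mutant cases. With no mitochondrial limit the shares were 1.18% (0.952 to 1.44) and 1.25% (1.02 to 1.52). The number of ependymal cells per 100 choroid plexus epithelium-like barcodes was 7.97 for the control library and 7.84 for the mutant library. Among ependymal, astrocyte-like and choroid plexus epithelium-like barcodes together, ependymal cells made up 3.74% (2.77 to 4.92) and 6.01% (4.82 to 7.40). A different number of cells in the ventricle wall, in the sort and in the surviving droplets cannot be told apart with 1 library each.

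**Figure D2:**
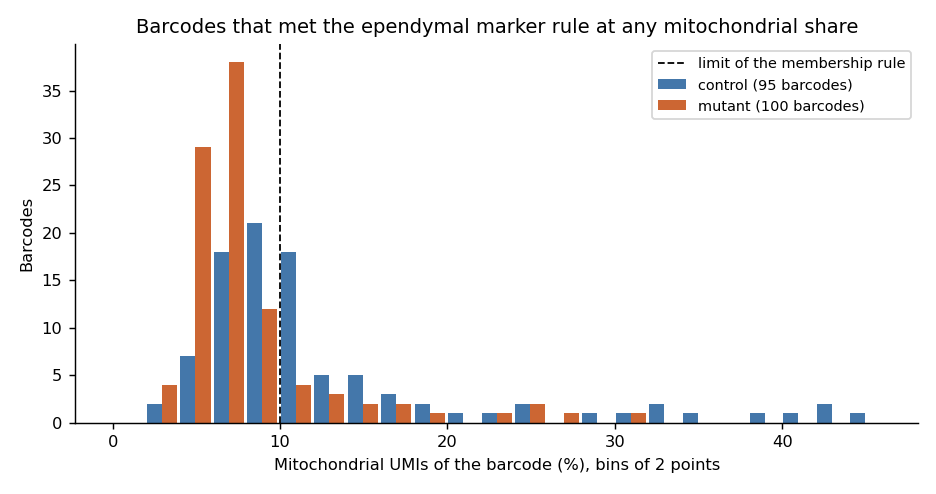
Histograms of the mitochondrial share of UMIs (x axis, percent, bins of 2 points) against the number of barcodes (y axis) for all 95 control and 100 mutant barcodes that met the marker part of the rule, with the 10% limit dashed. The control barcodes have a median of 9.88%, next to the limit, and the mutant barcodes a median of 6.63%.

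The promoters of the ependymal genes were searched for the X-box, the element that RFX factors bind, written as GTTNCC, 1 to 3 bases and GGNAAC, with at most 1 mismatch and on both strands (the pattern is its own reverse complement). The window ran from 250 bases before to 50 bases after each start in RefSeq's promoter table (GRCm38.p6). Of 179 genes of the cilia and ependymal marker lists, 148 were matched in the table, and 51 of them (34.5%, 26.8 to 42.7) held the pattern, against 1479 of all 27025 genes (5.47%, 5.2 to 5.75). With no mismatch the shares were 7.43% and 0.903%. The pattern was in 8 of 14 dynein arm assembly genes, 8 of 17 central apparatus genes and 9 of 20 genes of microtubule inner proteins and tektins, but in 0 of 12 inner dynein arm genes (0 to 26.5%). It was in 0 of 10 astrocyte, 0 of 7 choroid plexus and 0 of 6 microglia marker genes, with upper bounds of 30.8%, 41.0% and 45.9%. These sets are too small to differ visibly from the 5.47% of all genes. A match is a description of letters and not a bound site. The following stretches, from 115 bases before to 15 after the start, show the 4 markers whose match lies nearest to the start, and 1 marker without a match for comparison, with the match in capitals. Fam183b (chr11:58801946-58802075, minus strand) and 1110017D15Rik (chr4:41507750-41507879, minus strand), both cilium-associated genes, match with no mismatch at positions -16 and -18 from the start. Enkur (chr2:21205351-21205480, minus strand), a protein inside the doublet tubules, and Zmynd10 (chr9:107547189-107547318, plus strand), a dynein arm assembly factor, match with 1 mismatch at positions -12 and 0. Tmem212 (chr3:27896354-27896483, minus strand), 1 of the rule genes, has no match in its window.
Fam183b: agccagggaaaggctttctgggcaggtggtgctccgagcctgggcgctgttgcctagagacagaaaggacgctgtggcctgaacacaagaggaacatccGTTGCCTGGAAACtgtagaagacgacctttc
1110017D15Rik: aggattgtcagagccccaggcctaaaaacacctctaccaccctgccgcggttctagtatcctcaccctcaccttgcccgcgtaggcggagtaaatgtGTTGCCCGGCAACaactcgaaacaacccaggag
Enkur: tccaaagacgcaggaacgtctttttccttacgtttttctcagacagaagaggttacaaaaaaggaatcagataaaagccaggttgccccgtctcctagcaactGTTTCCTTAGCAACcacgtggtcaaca
Zmynd10: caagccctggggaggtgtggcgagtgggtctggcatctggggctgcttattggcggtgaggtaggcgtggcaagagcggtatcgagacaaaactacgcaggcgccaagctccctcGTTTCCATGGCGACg
Tmem212: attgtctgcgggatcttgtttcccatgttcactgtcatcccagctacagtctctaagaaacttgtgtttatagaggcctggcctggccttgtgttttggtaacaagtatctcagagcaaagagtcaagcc

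Motile axoneme genes set these cells apart from the astrocyte-like (635 control and 240 mutant cells) and choroid plexus epithelium-like cells (602 and 1058). A gene was measured when it had at least 50 UMIs in ependymal cells over both libraries. A class with fewer than 3 UMIs of a gene was set to 3 counts for the fold. Of 116 genes in 7 lists of axoneme parts, 106 were measured, and 98 of these (92.5%) were at least 4-fold higher in ependymal cells than in astrocyte-like cells in both libraries, against 1014 of 7278 genes in all (13.9%). Against choroid plexus epithelium-like cells, 86 (81.1%) were 4-fold higher, beside 2150 of 7278 genes (29.5%). The median log2 ratio over all genes was 0.31 against astrocyte-like and 1.30 against choroid plexus epithelium-like cells, where Ttr alone held 299758 and 291248 CPM. The cells were chosen on their transcripts, so these counts are descriptions. UMIs were read at the 3′ end, and levels are compared here within a gene and not between genes.

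Among outer dynein arm genes, 12 of 12 measured were 4-fold over astrocyte-like cells and 11 over choroid plexus epithelium-like cells. The heavy chain Dnah5 stood at 464 CPM in control and 508 CPM in mutant ependymal cells, against 1.30 and 4.82 CPM in astrocyte-like cells and 0 and 0.351 CPM in choroid plexus epithelium-like cells. Dnah9, the heavy chain of the outer cilium, stood at 542 and 556 CPM. Odad2, a docking complex gene, stood at 296 and 340 CPM, and all 131 cells held a UMI of it. Dnah17, known from sperm, had 0 and 1 UMIs. The outer arm heavy chains found in these cells were thus Dnah5, Dnah9 and Dnah11. Inner arm genes were as separate, with 11 of 12 above 4-fold against each class. Dnah6 stood at 665 and 707 CPM, and Dnali1, a light intermediate chain, at 342 and 428 CPM against 0.649 and 0 CPM in astrocyte-like cells. The exception against astrocytes was Dnah7b at 211 and 209 CPM, against 106 and 115 CPM there, whereas its close copy Dnah7a stood at 158 and 126 CPM against 1.78 and 2.68 CPM. Reads can be split between Dnah7a, Dnah7b and Dnah7c, so their separate values are uncertain.

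Dynein arms are put together in the cytoplasm by assembly factors, of which 12 of 15 measured were 4-fold over astrocyte-like and 10 over choroid plexus epithelium-like cells. Zmynd10, whose X-box match is printed above, stood at 102 and 140 CPM against 0 and 1.07 CPM in astrocyte-like cells. Daw1, which carries assembled arms to the cilium, stood at 136 and 157 CPM against 0.162 and 0 CPM. Cfap298 was closer to the choroid plexus, at 243 and 263 CPM against 186 and 198 CPM. In the central apparatus, 15 of 15 measured genes outside the rule passed both folds. Spag16 stood at 700 and 858 CPM and Spef2 at 647 and 797 CPM, with Spef2 at 22.1 and 24.7 CPM in astrocyte-like cells. Cfap54 stood at 850 and 925 CPM, and every ependymal cell had a UMI of it.

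Of 17 measured radial spoke genes, 15 passed against astrocyte-like and 12 against choroid plexus epithelium-like cells. Rsph4a, a spoke head gene mutated in ciliary dyskinesia, stood at 377 and 398 CPM, against 0.811 and 0 CPM in astrocyte-like cells. Rsph9 was shared with that epithelium, at 246 and 280 CPM against 184 and 186 CPM, and Rsph6a, known from sperm, had 0 UMIs. In the nexin-dynein regulatory complex and the molecular rulers that space the repeats, 12 of 12 passed against astrocyte-like and 10 of 12 against choroid plexus epithelium-like cells. Ccdc39, a ruler, stood at 332 and 437 CPM, and Iqca at 401 and 459 CPM. Drc7 was an exception, at 195 and 231 CPM against 139 and 158 CPM in the choroid plexus epithelium-like cells. Of 23 microtubule inner proteins and tektins, 21 and 17 passed. Cfap45 stood at 336 and 414 CPM against 0.487 and 0 CPM in astrocyte-like cells, and Mns1, which encodes another protein of the tubule lumen, at 482 and 538 CPM.

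Parts that motile cilia share with the single primary cilium of most cells were less distinct. Of 38 measured genes of intraflagellar transport, which carries parts along the cilium, and of the BBSome, its cargo adaptor, 17 (44.7%) passed against astrocyte-like and 13 (34.2%) against choroid plexus epithelium-like cells. Ift88, a core transport subunit, stood at 201 and 229 CPM against 22.6 and 22 CPM in astrocyte-like cells. The retrograde motor Dync2h1 stood at 297 and 316 CPM against 106 and 106 CPM. The BBSome gene Bbip1, at 163 and 166 CPM, was at 97.7 and 90.6 CPM in astrocyte-like cells. For the BBSome alone, 1 of 10 measured genes passed against astrocyte-like cells. Over all genes, 13.9% passed against astrocyte-like and 29.5% against choroid plexus epithelium-like cells. The BBSome count and the 34.2% lie near these shares.

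**Figure D3:**
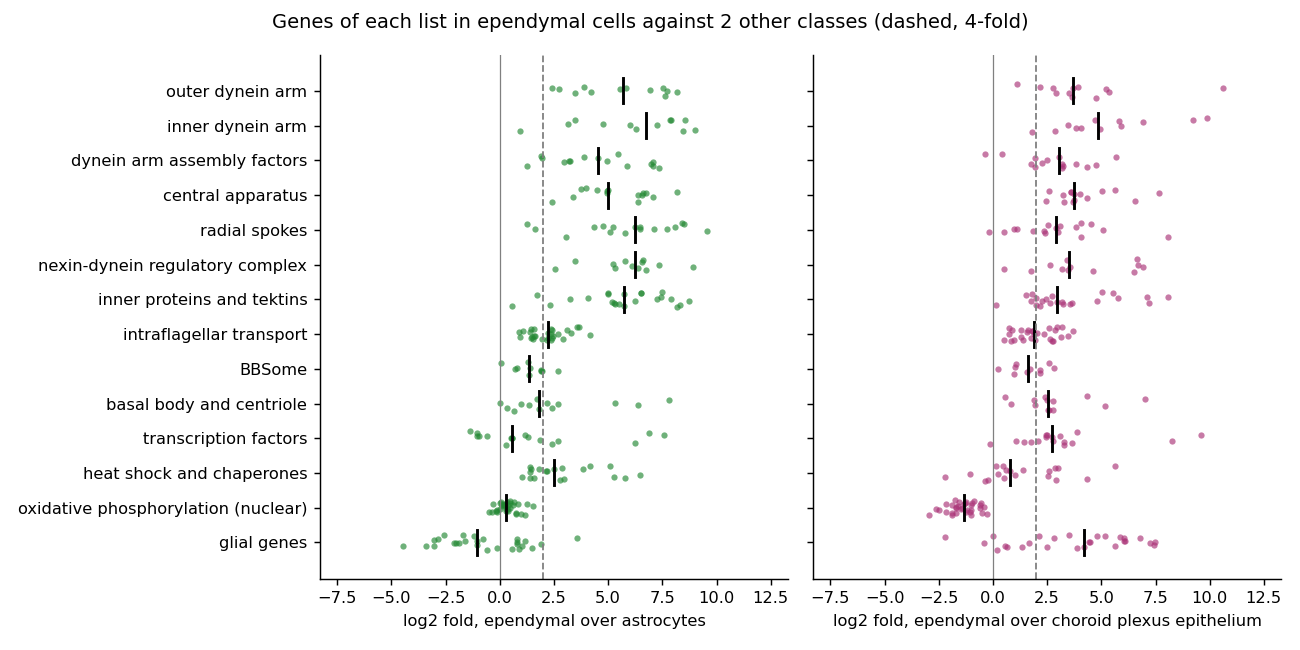
For 14 gene lists, each point is 1 measured gene at its log2 ratio of ependymal over astrocyte-like and over choroid plexus epithelium-like CPM (x axis), with the list median as a black tick and 4-fold as a dashed line. Lists of axoneme parts lie almost wholly past the dashed line against astrocytes (98 of 106 genes, beside 13.9% of all genes). The BBSome (1 of 10) and nuclear genes of oxidative phosphorylation (0 of 33) do not.

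The transcription factors of ciliogenesis fell into those kept in these mature cells and those at the floor. Foxj1 and Trp73, the latter at 60.4 and 72.5 CPM, were present, and Myb stood at 164 and 170 CPM in 83.3% and 89.2% of cells, against 0.487 and 1.61 CPM in astrocyte-like and 0 CPM in choroid plexus epithelium-like cells. Mcidas, which starts the multiciliated programme, had 0 and 1 UMIs, and Foxn4 had 0. Gmnc, which acts with it, stood at 8.48 and 16.8 CPM, below the 51.3 and 65.9 CPM of choroid plexus epithelium-like cells. Rfx2 stood at 61.5 and 85.9 CPM, and Rfx3 at 479 and 456 CPM, the latter also in astrocyte-like cells at 310 and 339 CPM. Genes of centriole amplification followed the same division. Deup1, which builds the deuterosome, stood at 37.1 and 33.6 CPM in 43.8% and 42.2% of cells, with 0 UMIs in astrocyte-like cells, while Plk4 had 1 and 5 UMIs, Ccno 4 and 10 and Cdc20b 0. Tubulins of the cilium were high, with Tubb4b at 1723 and 1929 CPM against 124 and 123 CPM in astrocyte-like cells.

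Junction, transport and secreted genes showed what ependymal cells share with their neighbours. Cdhr3, a cadherin of ciliated epithelia, stood at 355 and 391 CPM against at most 2.14 CPM in astrocyte-like and choroid plexus epithelium-like cells. Gja1, the connexin of glial gap junctions, stood at 681 and 445 CPM against 1807 and 1732 CPM in astrocyte-like cells and 10.8 and 6.31 CPM in choroid plexus epithelium-like cells. Slc2a1, the glucose transporter GLUT1, stood at 479 and 531 CPM, against 140 and 109 CPM in astrocyte-like and 35.6 and 42.8 CPM in choroid plexus epithelium-like cells. Over all genes, 13.9% were 4-fold over astrocyte-like and 29.5% over choroid plexus epithelium-like cells, with median log2 ratios of 0.31 and 1.30. Of 27 measured glial genes shared with astrocytes, 1 was 4-fold over astrocyte-like cells but 18 were 4-fold over choroid plexus epithelium-like cells. That 1 was Vim, the intermediate filament vimentin, at 1048 and 937 CPM against 61.2 and 115 CPM. Of 24 measured secreted and signalling genes, 9 and 12 passed, beside the same 13.9% and 29.5% of all genes. Dbi, which encodes the acyl-CoA and benzodiazepine receptor binding protein, stood at 12205 and 14661 CPM against 1166 and 1533 CPM in astrocyte-like cells. Wnt4 stood at 159 and 204 CPM against 3.25 and 3.22 CPM there, and Cp, the ferroxidase ceruloplasmin, at 136 and 125 CPM against 3.89 and 10.2 CPM. Of 19 chaperone genes, 10 were 4-fold over astrocyte-like cells, with Hsp90aa1 at 6722 and 7278 CPM against 160 and 206 CPM. Against choroid plexus epithelium-like cells 7 of 19 passed, beside 29.5% of all genes. Their median log2 ratio there was 0.77, under the 1.30 of all genes.

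The genes nearest to exclusive were not all cilium genes. They were picked by the ratio of ependymal CPM to the highest CPM in any other class (choroid plexus epithelium, astrocyte, microglia, border macrophage, endothelial, fibroblast or oligodendrocyte-like). Dthd1, which encodes a death domain protein, stood at 295 and 354 CPM, 887-fold over the highest other class. Got1l1 followed at 159 and 174 CPM and 795-fold, and Prr29 at 105 and 158 CPM and 736-fold. Krt15, a keratin of stratified epithelia, stood at 164 and 180 CPM, 465-fold over the highest other class, yet only 22 of 48 control and 36 of 83 mutant cells held a UMI of it. Scn7a stood at 119 and 168 CPM with 0 UMIs in astrocyte-like cells. Acta2, smooth muscle actin, stood at 155 and 169 CPM in 47.9% and 48.2% of cells. Mural cells, which also express it, were not among the 7 classes. Of the other 9 mural markers, Tagln, another contractile gene, stood at 60.4 and 56.4 CPM in 12.5% and 15.7% of cells and Vtn at 26.5 and 8.73 CPM. Pdgfrb had 8 and 2 UMIs, Notch3 2 and 5, and Higd1b 0 and 1, while Rgs5, Kcnj8, Abcc9 and Myh11 had 0 in both libraries.

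Ependymal cells also differed among themselves. The variance between cells was divided by that of counting error at each cell's depth, and without the deep barcode 470 of 6298 genes exceeded a ratio of 2 in both libraries. This count screened genes for free RNA again without that barcode, and with the screen taken from all cells it was 486. Apoe had the largest spread, at 45.8 over control and 42.8 over mutant cells, with 1.67 to 170 UMIs per 10000 in control cells (median 53.6) and 5.63 to 170 in mutant cells (median 77.3). Dbi followed at 30.8 and 32.0, from 13.7 to 223 UMIs per 10000 in control cells and from 8.43 to 269 in mutant cells. Some variable genes were present in a part of the cells. Ucma, an extracellular matrix-associated protein gene, was found in 23 of 47 control and 33 of 83 mutant cells, with 49.3% of its mutant UMIs in 1 cell. Npy, the neuropeptide Y gene, was found in 15 of 47 and 31 of 83 cells, and Krt15 in 21 of 47 and 36 of 83 cells. Subsets of both libraries therefore held transcripts that the rest lacked at this depth.

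Factors that mark regions of the brain were each found in a part of the cells. At few UMIs per cell, such as 55 UMIs of Irx5 over 48 control cells, a cell without a UMI may still express the gene. Whether the cells fall into regional groups was not tested. Irx5, of the midbrain and hindbrain, was found in 60.4% (45.3 to 74.2) of control and 62.7% (51.3 to 73.0) of mutant cells. Emx1, of the dorsal telencephalon, was found in 16.7% (7.48 to 30.2) and 25.3% (16.4 to 36). Msx1, of the dorsal midline, was found in 60.4% and 66.3%, and Zic1 in 43.8% and 49.4%. Hox genes of the caudal hindbrain and spinal cord were in at most 4.17% of cells. In microglia-like cells, with a median of 8450 and 8391 UMIs, the regional factors were found in 2.12% of cells or less, apart from Hoxb4 in 4.18% and 2.22%. The libraries' intervals overlapped for each factor named here. In UMIs, however, 2 of 11 regional genes in the comparison of genotypes were higher in the mutant without the deep barcode. Over all genes it was 171 of 6638 (2.58%). The regional genes were Emx1 at 15.6 against 29.5 CPM (ratio 1.90, 1.004 to 3.84) and Six3, which is also among the ciliogenesis factors below. Neither held under all 6 ways of counting given below.

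**Figure D4:**
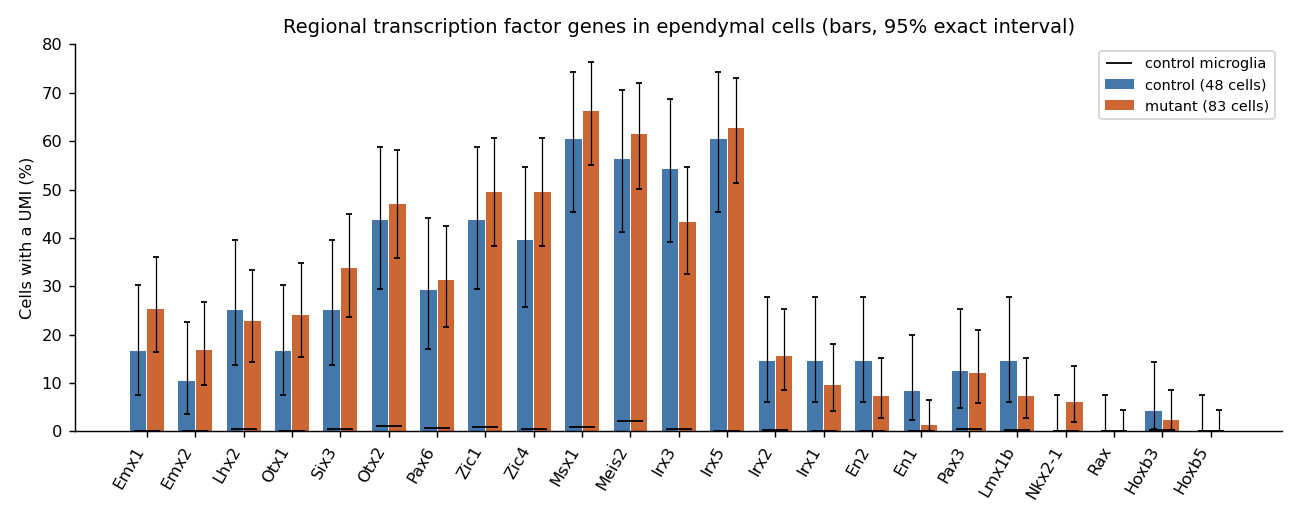
Bars give the percent of ependymal cells with at least 1 UMI (y axis) of 23 regional and tanycyte genes (x axis) in each library, with exact 95% intervals as whiskers and the level in control microglia-like cells as a black dash. Irx5, Msx1 and Meis2 are in over 50% of cells of both libraries, while Rax is in 0%.

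The comparison of genotypes asks whether ependymal transcripts differ where border macrophages lose CSF1R. A gene counted as higher or lower when its ratio of CPM was at least 1.5 or at most its inverse, with an interval that excluded 1, among genes with at least 50 UMIs that were not below 10% of their level in another class. Of 6875 genes, 241 were higher in the mutant (3.51%) and 420 lower (6.11%). The lower genes turned on the deep barcode. It alone held over 25% of the control UMIs of 230 of the 420. Without it, 171 of 6638 genes were higher (2.58%) and 189 lower (2.85%), and 132 and 156 of the former calls were kept. With every cell thinned to 5000 UMIs the counts were 70 and 73 among 2580 genes. The higher genes were thus 36.5% of all calls with every cell, 47.5% without the deep barcode and 49.0% after thinning. Calls also moved with the mitochondrial limit. With no limit, 136 of the 241 higher and 294 of the 420 lower genes were kept.

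The listed axoneme genes held no calls once the deep barcode was out. Without it 0 of the 106 measured genes of the 7 lists were higher and 0 lower, beside 2.58% and 2.85% of all genes. Their median log2 ratio was 0.05, beside 0.02 for all genes. They summed to 24634 CPM over control and 25772 CPM over mutant cells. Their ratios ran from 0.69 to 1.49. With the deep barcode, Odad4 at 1.57, Cfap221 at 1.53, Cfap65 at 1.54 and Tekt3 at 1.68 counted as higher and 0 as lower. Over all genes 3.51% were then higher and 6.11% lower. Intraflagellar transport and BBSome genes summed to 5413 and 5617 CPM without it, again with 0 calls among 38. Cilium genes outside these lists were called, a selection made after their values were seen. Dnaaf6b, an X-linked dynein arm assembly gene, was higher at 40.7 against 66.4 CPM without the deep barcode (1.63, 1.10 to 2.49). Cfap97 was higher at 49.1 against 79.9 CPM (1.63, 1.13 to 2.38), and Cep131, a centrosomal gene, at 43.1 against 65.1 CPM (1.51, 1.02 to 2.28). Foxj1 had a ratio of 1.06 (0.94 to 1.19) without the deep barcode. Of 33 nuclear genes of oxidative phosphorylation, 0 were called without the deep barcode, at a median of 0.18. Of 34 measured genes linked to ciliary dyskinesia or hydrocephalus, 0 were called without it, at a median of 0.003. Sets of 33, 34 or 38 genes are small for shares of 2.58% and 2.85%, so 0 calls in them do not show that they were unaltered.

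**Figure D5:**
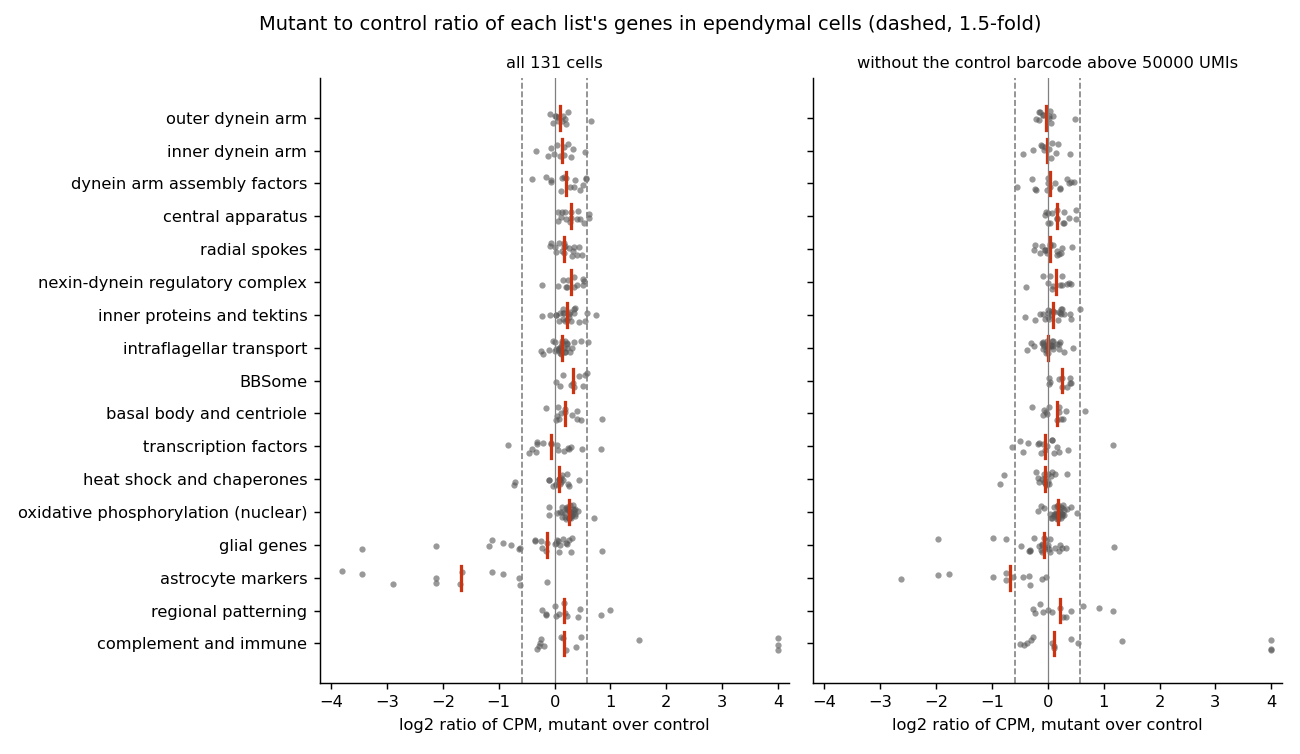
For 17 gene lists, each point is 1 gene at its log2 mutant to control ratio of CPM (x axis), with all cells and without the deep barcode, the list median as a red tick and 1.5-fold as dashed lines, and values past 4 at the edge. Axoneme lists gather near 0 without the deep barcode. The points and ticks are drawn without the 10 CPM that the list medians of the text add. With those 10 CPM, the median was 0.05 over 106 axoneme genes without the deep barcode. That of astrocyte-shared glial genes moved from -0.13 to -0.06.

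Other lists held few calls, beside 2.58% higher and 2.85% lower over all genes without the deep barcode. Of 18 secreted and signalling genes, 0 were higher and 0 lower. Of 22 glial genes shared with astrocytes and inside the rule without the deep barcode, Hes1, a Notch target, was higher at 29.9 against 68.5 CPM (ratio 2.29, 1.47 to 3.70), and Ednrb, an endothelin receptor, lower at 171 against 102 CPM (0.60, 0.47 to 0.75). With the deep barcode counted, Hes1 was found in 29.2% of control and 55.4% of mutant cells. Slc1a3, the glutamate transporter GLAST, went from a ratio of 0.64 with the deep barcode to 0.98 without it. Of 16 ciliogenesis factors Six3 was the 1 called, at 22.7 against 51.0 CPM (2.24, 1.34 to 3.93). Ccdc78, a deuterosome gene, was the 1 called among 13 centriole genes, at 44.3 against 70.5 CPM (1.59, 1.08 to 2.38). Of these, Ccdc78 kept its call under each of the 6 ways of counting given below, while Hes1, Ednrb and Six3 lost theirs under at least 1 of them. Astrocyte markers in ependymal barcodes summed to 3114 CPM over control cells without the deep barcode and 2301 CPM over mutant cells, and their part in these ratios was not tested.

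Many of the calls with the highest and lowest bounds rested on single droplets. Among the 10 highest, H2-Eb1, an MHC class II chain, had 1 control and 183 mutant UMIs, 95.6% of the latter in 1 cell. H2-Ab1 had 4 and 195 UMIs with 72.8% in 1 cell, Rbp4 0 and 107 UMIs with 99.1% in 1 cell, Cd52 13 and 104 UMIs with 50% in 1 cell, and Isg15 8 and 61 UMIs with 73.8% in 1 cell. The other 5 were Kctd16, Gsn, Rgl2, Nkapl and Ly6h, with at most 18.3% of their mutant UMIs in 1 cell. The 10 lowest were led by Prl, the pituitary prolactin gene, with 61 UMIs in 36 of 48 control cells and 0 in the mutant. Prl was at 166 CPM in control and 0 CPM in mutant microglia-like cells, so the difference was present in another class as well. The other 9, among them Ptn, Ptch1 and Srgap1, had 54.4% to 78.3% of their control UMIs in the deep barcode, and without it all 9 lay under 50 UMIs or under 10% of their level in another class and left the comparison. Ptn then stood at 238 against 135 CPM (0.57, 0.46 to 0.69).

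A smaller group of differences held under 6 ways of counting, a choice made after the values were seen. They were all cells, no deep barcode, neither of the outlying barcodes, equal weight per cell, no members that met the rule of another type than astrocytes, and no genes with over 25% of a library's UMIs in 1 cell. Under all 6, 76 genes were higher and 65 lower. Thinning, the mitochondrial limit and the Scrublet score were not among the 6. Of the 241 higher and 420 lower genes with all cells, thinning kept 17 and 14, with 2580 genes compared. With no mitochondrial limit 136 and 294 were kept. How many of the 76 and 65 genes kept their calls there is not given here. Among the higher, Ctnna3 (chr10:63430098-65003667), an alpha-catenin, stood at 162 CPM in control cells without the deep barcode and 299 CPM in mutant cells (ratio 1.85, 1.52 to 2.26), beside a ratio of 1.11 in astrocyte-like cells. Gsn (chr2:35256380-35307892), the actin-severing gelsolin, stood at 226 and 393 CPM (1.74, 1.47 to 2.06), and its ratio in astrocyte-like cells was 3.44. The variance of Gsn between cells was 10.7 (control, without the deep barcode) and 15.8 (mutant) times that of counting error. Its interval leaves this spread out and is too narrow for it. Ly6h (chr15:75551268-75567255), a GPI-anchored protein, stood at 158 and 259 CPM (1.64, 1.34 to 2.01), with at most 5.19 CPM in astrocyte-like cells. Rgl2, a Ral exchange factor, stood at 18 and 46.3 CPM and was found in 13 of 48 and 46 of 83 cells. Ctnna3 and Gsn were at 0.27 and 0.31 of their levels in oligodendrocyte-like cells, and Rgl2 at 0.52 of that in microglia-like cells. Ly6h was 45.0-fold above the highest other class. The last of the 6 ways leaves out genes held mainly by 1 cell, so that these genes were found in many cells follows from the choice.

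Among the lower genes Ccnd2 (chr6:127125162-127152193), the cell cycle regulator cyclin D2, stood at 256 CPM in control cells without the deep barcode and 134 CPM in mutant cells (0.52, 0.43 to 0.64), beside ratios of 1.22 in astrocyte-like and 0.91 in choroid plexus epithelium-like cells. Cdh7 (chr1:109982431-110140157), a classical cadherin, stood at 65.8 and 27.5 CPM (0.42, 0.27 to 0.64), with at most 0.649 CPM in astrocyte-like cells. Klf6, an immediate early transcription factor, stood at 70.6 and 30.9 CPM (0.44, 0.29 to 0.65). With the deep barcode counted, it was found in 70.8% of control and 31.3% of mutant cells. Cxcr4, the receptor of CXCL12, stood at 85.0 and 42.3 CPM (0.50, 0.35 to 0.71). Timp3, an inhibitor of matrix metalloproteinases, stood at 309 and 203 CPM (0.66, 0.55 to 0.78). These levels describe 2 libraries with 1 dissociation and sort each, and Klf6 belongs to a list of immediate early and isolation-response genes, of which it was the 1 called among 10 without the deep barcode. Genotype and preparation cannot be told apart here.

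Csf1r was at the level of other non-macrophage classes in most ependymal cells, and its ligand Csf1 was present. Csf1r had 89 UMIs in 20 of 48 control cells and 126 UMIs in 20 of 83 mutant cells. Of these, 68 and 105 UMIs lay in the 4 and 7 cells with over 2000 CPM of microglia markers. In the remaining cells Csf1r stood at 24.6 and 15.5 CPM, against 22.3 and 17.1 CPM in choroid plexus epithelium-like, 38.8 and 37.5 CPM in astrocyte-like and 2327 and 1835 CPM in microglia-like cells. Csf1, a ligand of the receptor, stood at 27.6 and 22.1 CPM. Outside the cells with over 2000 CPM of microglia markers it stood at 28.2 and 23.7 CPM, in 14 of 44 and 24 of 76 cells. It was at 2.39 and 3.86 CPM in choroid plexus epithelium-like, 35.5 and 28.9 CPM in astrocyte-like and 22.8 and 27.7 CPM in microglia-like cells. Il34, the other ligand, had 1 and 0 UMIs. Mrc1, whose locus drives Cre, had 5 and 11 UMIs, 10 of the latter in 1 cell.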

How the data were processed

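Single-cell libraries of 1 control and 1 mutant pool were read from the deposited matrices, which hold raw UMI counts per gene and barcode, written by Cell Ranger 7.1.0 per the file headers. The submitters' processing notes name the builds GRCm38.p6 and mm10. For alignment settings, intron counting, cell calling or a removal of free RNA, the sources used here give nothing. Gene locations came from GENCODE M21 (25637 of 26033 genes matched). No deposited annotation was used, so classes were rebuilt by marker rules, each asking for several of 6 genes with 2 UMIs, and a barcode that met more than 1 rule entered no comparison class.

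Each class was summed within its library and scaled to CPM (Python 3.11.15, numpy 2.4.6, scipy 1.17.1, scanpy 1.11.5). Ratios carry exact conditional Poisson 95% intervals and shares Clopper-Pearson 95% intervals. Both ignore the spread between cells and animals, and UMI totals (943267 and 1489890) set their width. Mitochondrial, ribosomal protein, haemoglobin, Y-linked and predicted genes were left out, as were Xist, Tsix, Kdm6a, Eif2s3x, Ddx3x and Kdm5c of the X chromosome. Other X-linked genes stayed in. A further 403 genes whose ependymal CPM lay under 10% of that in the highest other class were set aside as possible free RNA. List medians use log2 of CPM plus 10. The script was tested on simulated data. Doublets were not removed. Scrublet's automatic threshold marked 0.0522% of control barcodes, so it had not worked there, and 1.84% of mutant barcodes, 5 of them ependymal. Members, gene lists and classes were chosen with earlier results of these data known. Named genes followed a rule: the 10 highest and 10 lowest interval bounds at 20 CPM or more, the 20 most exclusive genes, the 15 with the largest spread, 2 to 4 members per list by size of difference and of ratio to other classes, all markers, the CSF1R system, and promoters nearest to a match. Genes that held under all 6 ways of counting were named after their values were seen, as were mural markers and cilium genes outside the lists, factors and centriole genes at few UMIs. Alternatives varied the membership rule, scaling, depth, UMI minimum and free RNA screen. A few items are not reported here.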

Additional observations from a re-analysis of the deposited data

How the results depend on the processing

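The precision is limited by 48 and 83 cells and by 1 library per genotype. No paired analysis was possible because each genotype has 1 library and no replicate numbers. Direction here is that of the mutant against the control, and the cause of the changes below was not tested beyond what each setting removes. The settings without outlying barcodes, high Scrublet scores, members of a class other than astrocytes or a mitochondrial limit were chosen after seeing the data. The share of ependymal barcodes moved from 0.836% and 1.32% to 0.193% and 0.356% at a mitochondrial limit of 5%, to 0.226% and 0.302% without members that met the rule of another class, and to 1.18% in the control with no limit. The count of higher genes, 241, became 90 at the 5% limit, 84 without members of another class, 148 without both outlying barcodes, 70 after thinning and 155 at 100 UMIs. The genes compared went from 6875 to 1465, 1647, 6589, 2580 and 4506 in that order, so these counts are not to be read as shares. The count of lower genes, 420, became 98, 63, 194, 73 and 239 under the same settings. It became 189 of 6638 genes without the deep barcode, 187 of 6253 without genes held to over 25% by 1 cell and 224 of 6072 with a free RNA screen at 25%. Genes 4-fold over astrocyte-like cells, 1014, became 429 at the 5% limit and 534 without members of another class. Those over choroid plexus epithelium-like cells, 2150, became 654, 749 and, with TMM scaling, 1023. The 5% limit and the loss of members of another class also left fewer genes with at least 50 UMIs. The number of the 28 described lists with a median above 0, 19, became 11 without both outlying barcodes. Genes with a spread over 2, 552, became 215 without members of another class, and X-box matches 7.43% with no mismatch.

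Of 2961 ratios of 248 named genes under 12 alternatives, 2471 stayed within their interval, 465 moved and 25 changed direction. H2-Eb1 fell to 0.69 without called doublets and 0.62 without Scrublet scores above 0.25, and Cd52 to 0.96 without called doublets. Isg15 went to 0.97 without members of another class, 0.85 without those of a class other than astrocytes, 0.98 without high Scrublet scores and 0.78 with no mitochondrial limit. Without members of another class, Srgap1 went to 2.72, Mapk4 to 1.29, Tekt3 to 0.96, Aldoc to 1.13, Sdhd to 0.91 and Msmo1 to 1.31. Without both outlying barcodes, Mical2 went to 1.19, Adcy2 to 1.03, Pde8b to 1.23, Aldoc to 1.26 and Msmo1 to 1.12. After thinning, Mapk4 went to 1.04, Prr29 to 0.93, Tekt3 to 0.92, Entpd2 to 1.19, Pfkp to 1.01 and Msmo1 to 1.09, and with equal weight per cell Msmo1 went to 1.05.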

Other observations

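The main axis of variation among the ependymal cells, with 5.54% of the variance of the log-normalised counts, ran from Fth1, Meig1, Chchd10, Gstm1, Sntn and Dbi at one end to Magi2, Kirrel3, Rora and Rfx3 at the other. The next, with 2.78%, had the cilium genes Agbl4, Lrriq1, Spag17 and Dnah3 at one end and Frmd4a, Tmsb4x and Ptn at the other. The lowest position on both was that of a shallow mutant barcode of 2372 UMIs, at -37.8 and -21.1, and the lowest control position on the second was that of the deep barcode, at -14.5. Further axes are not described, because a pair of mutant barcodes with 2372 and 2743 UMIs lay at their ends. Endocytic and complement genes were also seen. Lrp2, the endocytic receptor megalin, stood at 70.0 CPM in control and 49.7 CPM in mutant ependymal cells, with 0 UMIs in astrocyte-like cells. Without the deep barcode the control level of Lrp2 was 74.2 CPM, a ratio of 0.67 (0.47 to 0.95), and Lrp2 was not called. C3, the central complement component, stood at 36 and 28.9 CPM in 12.5% and 20.5% of cells, against 0.162 and 0.536 CPM in astrocyte-like cells. Gbp2, a guanylate-binding protein, stood at 44.5 and 44.3 CPM against 1.30 and 1.07 CPM in astrocyte-like cells. Ifitm3, an interferon-induced membrane protein, stood at 482 CPM in the control without the deep barcode and 699 CPM in the mutant, a ratio of 1.45 (1.29 to 1.63).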
